A study of Mus musculus with 9 samples.

Results

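Ly6 family surface proteins are described here through 5 genes, *Ly6a*, *Ly6c1*, *Ly6c2*, *Ly6e* and *Gpihbp1*, which were matched by symbol among the 17232 genes listed for sorted bone-marrow endothelial cells (ECs) of mice. All 5 were listed and all 5 passed the filter on low values. The ECs came from *Nestin*-GFP transgenic mice, in which regulatory sequence of the *Nestin* gene drives GFP. The labels give no age, and by its methods the study used mice of 6 to 14 weeks and of both sexes. Arteriolar ECs (AECs) were CD45-CD31+PDPN-Sca-1high and were divided into *Nestin*-GFPbright and *Nestin*-GFPdim AECs, which the labels call Nestin-GFPhigh and Nestin-GFPlow. Sinusoidal ECs (SECs) were CD45-CD31+PDPN+Sca-1low. No group received a treatment or carried another allele. Each group had 3 libraries, numbered 1, 3 and 4, and no label says whether equal numbers mark the same mouse, so p-values measure the spread between these libraries. Sca-1 is the protein of *Ly6a*. The gate that set AECs apart from SECs therefore used the product of one of the 5 genes, and *Ly6a* is described but not tested between these cells.

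The LU domain is a small fold of extracellular proteins held together by disulphide bonds, and most proteins that carry it sit on the cell surface by a glycosylphosphatidylinositol (GPI) anchor. In the mouse, Sca-1 marks haematopoietic stem cells and many endothelial cells, and the Ly6C proteins of *Ly6c1* and *Ly6c2* are found on monocytes, neutrophils, T-cell subsets and endothelium. *Ly6e* encodes a widely expressed member that many cells induce after interferon. *Gpihbp1* encodes the protein of capillary endothelium that binds lipoprotein lipase and carries it to the vessel lumen, and its LU domain is joined to an acidic stretch.

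The 5 genes lie within 644.4 kb of chromosome 15 of GRCm38. *Ly6e* is at chr15:74955051-74959905 on the plus strand, *Ly6a* at chr15:74994877-74998031 and *Ly6c1* at chr15:75044018-75048830 on the minus strand. *Ly6c2* is at chr15:75108158-75111970 on the minus strand and *Gpihbp1* at chr15:75596628-75599481 on the plus strand. All are protein-coding genes in GENCODE M21. Coding sequences were compared because similar copies can exchange reads. *Ly6c1* and *Ly6c2* were identical in 387 of 396 coding bases (97.7%), and their longest identical run was 188 bases. The stretch of 60 coding bases with the most differences, coding bases 6 to 65 in a single exon of each gene (Ly6c1 at chr15:75048447-75048506 and Ly6c2 at chr15:75111603-75111662, minus strand), holds 6 of the 9, printed here in capitals to show where reads of both genes can be told apart.
Ly6c1: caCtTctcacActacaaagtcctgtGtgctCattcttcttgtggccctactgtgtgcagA
Ly6c2: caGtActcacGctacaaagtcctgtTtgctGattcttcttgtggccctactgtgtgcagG

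Of all distinct stretches of 50 bases in the annotated transcripts of *Ly6c1*, 32.8% also occurred in transcripts of another gene, on either strand, 379 of them in *Ly6c2* and 195 in *Ly6a*. The share was 19.0% for *Ly6a* and 14.5% for *Ly6c2*, and it was 0 for *Ly6e* and *Gpihbp1*. The coding sequence of *Ly6a* was 82.3% identical to that of *Ly6c1* and 84.1% identical to that of *Ly6g*, a neutrophil surface gene of the same cluster. The read length and the handling of reads with several positions are not given in the sources used here, so the levels of *Ly6a*, *Ly6c1* and *Ly6c2* hold an uncertainty that *Ly6e* and *Gpihbp1* do not share.

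The upstream sequences of *Ly6c1* and *Ly6c2* were less alike than their coding sequences. RefSeq start sites gave windows for these 2 of the 5 genes on GRCm38.p6, and the 250 bases before the first listed start are printed to set this near-identical pair side by side (*Ly6c1* chr15:75048838-75049087 and *Ly6c2* chr15:75111972-75112221, minus strand). Capitals mark bases that differ from the other gene or have no counterpart in its window.
Ly6c1: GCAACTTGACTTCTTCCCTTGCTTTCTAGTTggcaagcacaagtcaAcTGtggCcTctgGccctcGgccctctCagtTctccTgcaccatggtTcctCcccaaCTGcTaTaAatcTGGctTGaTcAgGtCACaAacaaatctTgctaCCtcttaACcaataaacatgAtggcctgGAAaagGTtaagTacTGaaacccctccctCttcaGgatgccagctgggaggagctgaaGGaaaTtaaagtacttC
Ly6c2: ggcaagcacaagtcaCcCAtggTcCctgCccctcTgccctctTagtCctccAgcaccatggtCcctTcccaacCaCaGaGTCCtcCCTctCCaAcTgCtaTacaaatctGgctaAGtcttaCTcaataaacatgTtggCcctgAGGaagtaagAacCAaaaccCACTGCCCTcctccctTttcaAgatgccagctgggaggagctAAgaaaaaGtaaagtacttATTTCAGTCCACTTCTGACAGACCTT

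Of the 209 aligned base pairs of both windows, 169 were identical (80.9%). The letters of a TATA box, TATAAA, searched on both strands, occurred once in the *Ly6c1* window, 143 bases before the start, and not in the *Ly6c2* window, and 12.4% of 32851 windows of the same length held them. The letters of a gamma-activated site, TTCNNNGAA, were in neither window (7.02% of all windows). These are matches of letters only.

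Levels are given as RPKM (reads per kilobase of exon, scaled to library size), computed from the deposited log2 RPKM values. Reads in listed genes numbered 13896190 to 73475550 per library (median 36720449), and every value of the 5 genes rested on at least 35 reads. The 5 genes took 0.510 to 1.40% of the reads of AEC libraries and 0.351 to 0.555% of those of SEC libraries. All 10 endothelial markers of the list used here were detected in all 9 libraries. Arterial markers summed to 299.8 to 1410 RPKM in AECs and 39.4 to 88.0 RPKM in SECs, and sinusoidal markers to 91.3 to 1010 and 2314 to 4304 RPKM. Libraries also held neutrophil transcripts. Their 12 markers took 17.3, 2.59 and 4.22% of the reads of *Nestin*-GFPbright AEC replicates 1, 3 and 4, 13.7, 0.676 and 0.574% of *Nestin*-GFPdim AECs, and 8.78, 0.00674 and 4.11% of SECs. The libraries differed in other blood-cell lists as well. Monocyte and macrophage markers took 0.0373 to 0.969% of reads, B and plasma cell markers 0.0669 to 0.818%, T and NK cell markers 0.00283 to 0.0259%, megakaryocyte and platelet markers 0.00180 to 0.169%, and erythroid markers 0.00235 to 2.84%, the last with its highest share in *Nestin*-GFPdim AEC replicate 4. The endothelial markers summed to 567.5 RPKM in *Nestin*-GFPbright AEC replicate 1 and to 1175 RPKM or more in every other library. In bulk samples of this kind, fewer cells of a type and less RNA per cell cannot be told apart.

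**Figure D1:**
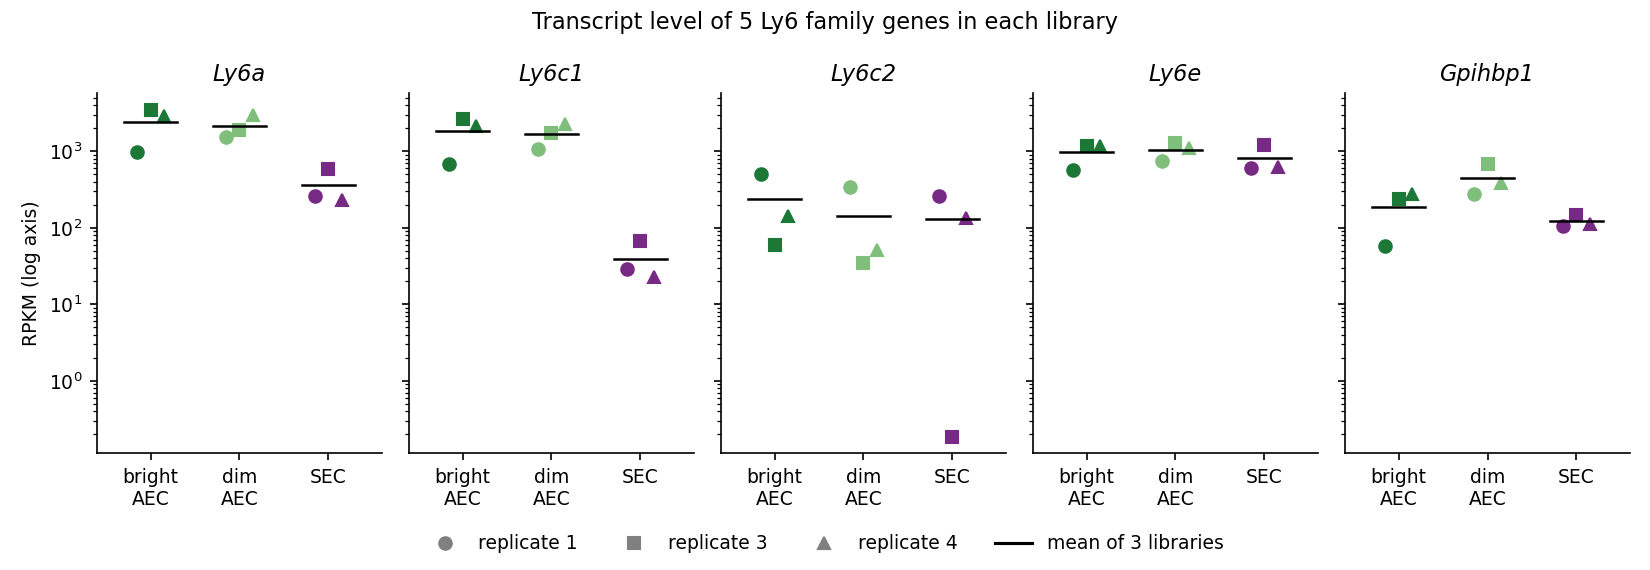
Transcript level of the 5 genes in RPKM on a log axis for the 3 sorted groups, with a point per library (shape by replicate number) and a line at the mean of 3 libraries. All AEC points of *Ly6c1* (674 RPKM and above) lie above all SEC points (67.1 RPKM and below), and *Ly6c2* of SEC replicate 3 stands alone at 0.185 RPKM.

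*Ly6a* was abundant in all 9 libraries and stood higher in every AEC library than in any SEC library. Its level was 993, 3492 and 2883 RPKM in *Nestin*-GFPbright AEC replicates 1, 3 and 4 and 1531, 1925 and 3036 RPKM in those of *Nestin*-GFPdim AECs. In SECs it was 263.9, 589.7 and 234.7 RPKM. By mean level it ranked 19 of 17232 listed genes in AECs and 135 in SECs, so that SECs selected as Sca-1low still held many *Ly6a* reads (12474 to 49748 per library). On the log2(RPKM + 1) scale AECs stood 2.67 above SECs. It is given as a description, since the Sca-1 gate chose the cells. The lowest of the AEC values, in *Nestin*-GFPbright AEC replicate 1, came from the library with the lowest sum of endothelial markers.

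*Ly6c1* had the widest difference between AECs and SECs among the 5 genes, and it rose in both AEC fractions. It stood at 674, 2646 and 2143 RPKM in *Nestin*-GFPbright AEC replicates 1, 3 and 4 and at 1067, 1765 and 2275 RPKM in *Nestin*-GFPdim AECs. In SECs it stood at 29.1, 67.1 and 22.8 RPKM. The groups did not overlap, and the lowest AEC library held more than the highest SEC library. The mean over the 6 AEC libraries was 1762 ± 756 RPKM and that over the 3 SEC libraries 39.7 ± 23.97 RPKM (SD), a log2 fold change of 5.45 (SE 0.53, 95% interval 4.23 to 6.66, adjusted p = 0.00163 from limma). *Nestin*-GFPbright AECs exceeded SECs by 5.42 (adjusted p = 0.00304) and *Nestin*-GFPdim AECs by 5.48 (adjusted p = 0.00535) on the same scale. The exact two-sided permutation test of AECs against SECs gave p = 0.0238, the smallest it can give for 6 libraries against 3.

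Among the 4 genes tested between AECs and SECs, *Ly6c1* was the 1 that passed, against 4.93% of all 16364 tested genes (1.94% higher in AECs and 2.99% lower). For *Nestin*-GFPbright AECs and *Nestin*-GFPdim AECs against SECs the count was likewise 1 of 4, against 4.58% and 1.95% of all genes, with 1.74% and 0.764% higher and 2.85% and 1.19% lower. With the replicate number as a block, 644 genes in place of 319 were called in *Nestin*-GFPdim AECs against SECs, and the calls of the 5 genes stayed as they were. Libraries that did not overlap, with AECs higher, were found in 4.69% of tested genes, and in 10.2% for *Nestin*-GFPbright AECs alone. The difference of *Ly6c1* ranked 13 of 16364 tested genes by log2 fold change. It passed the test in all 22 alternative settings in each of these comparisons, with adjusted p of 0.0001 to 0.0166 for AECs, 0.0001 to 0.0218 for *Nestin*-GFPbright AECs and 0.0014 to 0.0396 for *Nestin*-GFPdim AECs.

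The balance of *Ly6a* and *Ly6c1* differed between AECs and SECs. In AECs both genes drew nearly the same number of reads, 0.783 to 1.06 *Ly6a* reads for each *Ly6c1* read. In SECs there were 6.32 to 7.40 *Ly6a* reads for each *Ly6c1* read, and the ranges did not overlap. Markers of smooth muscle and pericytes moved the same way, with 3 of 10 called higher in AECs, against 1.94% of all tested genes. Against SECs 5 of 10 were called higher in *Nestin*-GFPbright AECs (1.74% of all) and 0 of 10 in *Nestin*-GFPdim AECs (0.764% of all). Their summed levels were 19.4 to 375.2 RPKM in AECs and 5.24 to 10.2 RPKM in SECs. Stem and progenitor markers summed to 263 to 576 RPKM in AECs and 16.5 to 78.8 RPKM in SECs. Of these 8 markers 1 was called higher in AECs, against 1.94% of all tested genes. It was *Cd34* (353 and 6.999 RPKM, adjusted p = 0.00154), whose protein endothelial cells also carry, while *Kit* stood at 6.47 and 8.04 RPKM. The part of either list in the result was not tested. SEC libraries held 1900 to 7877 *Ly6c1* reads. As *Ly6a* and *Ly6c1* share stretches of 50 bases, the part of misassigned *Ly6a* reads in the SEC values of *Ly6c1* was not tested.

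**Figure D2:**
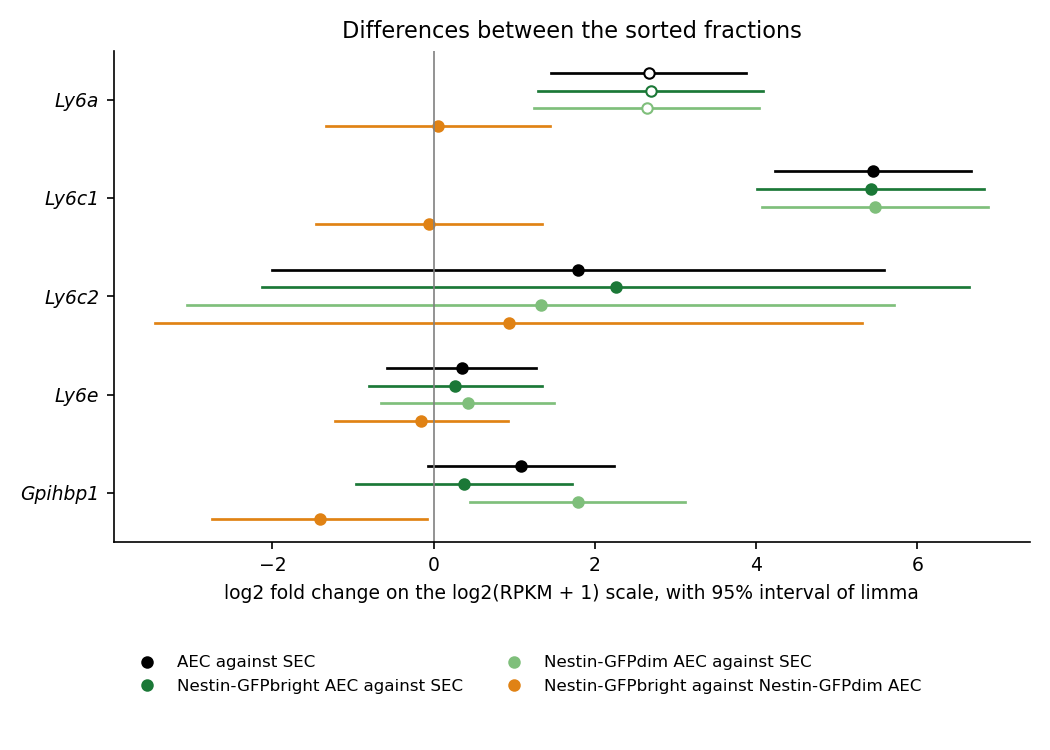
Log2 fold changes of the 5 genes on the log2(RPKM + 1) scale with 95% intervals from limma, for all AECs and either fraction set against SECs, and for *Nestin*-GFPbright against *Nestin*-GFPdim AECs. Open circles mark *Ly6a* where it is a description, and of the filled points *Ly6c1* against SECs (5.42 to 5.48) lies farthest from 0.

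*Ly6c2*, the near copy of *Ly6c1*, varied more between libraries of the same group than between groups. Its level was 506.8, 59.9 and 144 RPKM in *Nestin*-GFPbright AEC replicates 1, 3 and 4 and 346, 34.2 and 52.0 RPKM in *Nestin*-GFPdim AECs. In SECs it was 257.6, 0.185 and 132.9 RPKM. The groups overlapped over most of their range. AECs minus SECs gave a log2 fold change of 1.79 (SE 1.66, 95% interval -2.003 to 5.59, adjusted p = 0.802), and without SEC replicate 3, which held 35 reads of the gene, it was -0.64. The RPKM of *Ly6c2* divides by 2740 bases and that of *Ly6c1* by 1677 bases, so equal reads give *Ly6c2* the lower RPKM.

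*Ly6c2* varied over the libraries as genes of neutrophils and monocytes did. *Ly6g*, which encodes the neutrophil surface protein Ly6G, stood at 801.9, 83.2 and 133.9 RPKM in *Nestin*-GFPbright AEC replicates 1, 3 and 4 and at 473.7, 22.3 and 8.11 RPKM in *Nestin*-GFPdim AECs. In SECs it stood at 302.0, 0.356 and 128.2 RPKM. Both genes were thus highest in replicate 1 of each group and nearly missing in SEC replicate 3, the library in which neutrophil markers took the smallest share of reads. *Ly6c2* had 1.52 to 3.13 reads for each read of *Ly6g* in 7 libraries, and 4.47 and 18.7 in *Nestin*-GFPdim AEC replicates 3 and 4, whose neutrophil marker shares were the lowest of the AECs. Monocyte and macrophage markers took 0.969, 0.153 and 0.326% of the reads of *Nestin*-GFPbright AEC replicates 1, 3 and 4, 0.586, 0.0930 and 0.0534% of *Nestin*-GFPdim AECs, and 0.512, 0.0373 and 0.337% of SECs. They too were highest in replicate 1 of each group and lowest of all in SEC replicate 3. For each read of *Ly6c1* there were 1.23, 0.0370 and 0.110 reads of *Ly6c2* in *Nestin*-GFPbright AECs, 0.530, 0.0317 and 0.0373 in *Nestin*-GFPdim AECs, and 14.5, 0.00444 and 9.53 in SECs. None of the 12 neutrophil markers passed the test between AECs and SECs (0 of 12), against 4.93% of all tested genes. With 12 genes the count cannot be told apart from that share. The median log2 fold change of these markers was 2.08 in AECs over SECs, against 0.03 over all tested genes. The count therefore does not show that neutrophil RNA was even between the groups. The part of neutrophil, monocyte or other leukocyte RNA in the *Ly6c2* values was not tested. As *Ly6c1* and *Ly6c2* share stretches of 50 bases, the part of misassigned *Ly6c1* reads in these values was not tested either.

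**Figure D3:**
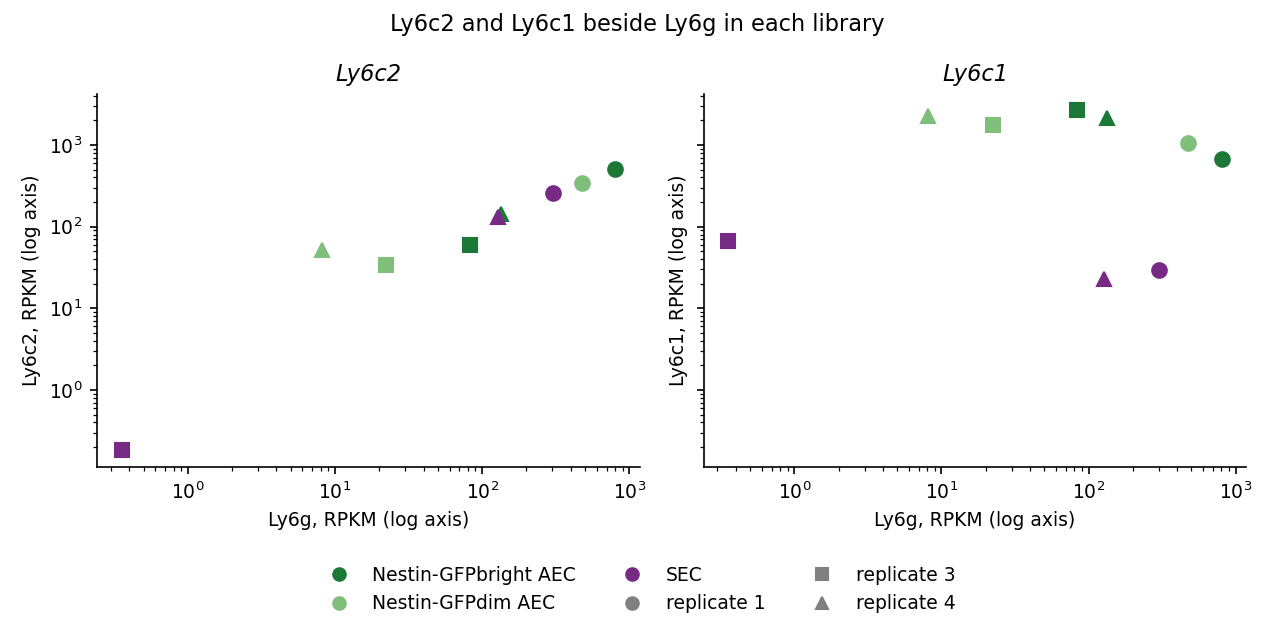
*Ly6c2* (left) and *Ly6c1* (right) against *Ly6g* in RPKM on log axes, with a point for each of the 9 libraries. *Ly6c2* lies along *Ly6g* from SEC replicate 3 (0.185 RPKM) to *Nestin*-GFPbright AEC replicate 1 (506.8 RPKM), while all AEC points of *Ly6c1* lie above all SEC points.

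*Ly6e* had nearly the same level in all groups. It stood at 573.6, 1189 and 1164 RPKM in *Nestin*-GFPbright AEC replicates 1, 3 and 4 and at 756.9, 1298 and 1115 RPKM in *Nestin*-GFPdim AECs. In SECs it stood at 600.8, 1224 and 617.6 RPKM. The ranges lay over each other, and every group held a library at 1189 RPKM or more. For AECs minus SECs the log2 fold change was 0.35 (SE 0.41, 95% interval -0.58 to 1.27, adjusted p = 0.871), so that a difference of 1 on the log2 scale lies within the interval. By mean level *Ly6e* ranked 42 of the listed genes in AECs and 49 in SECs.

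*Gpihbp1* was present in every library and was highest in *Nestin*-GFPdim AECs, without passing the test. It stood at 58.7, 235.2 and 273.2 RPKM in *Nestin*-GFPbright AEC replicates 1, 3 and 4 and at 276.3, 681.4 and 384.2 RPKM in *Nestin*-GFPdim AECs. In SECs it stood at 105.4, 146.6 and 111.8 RPKM. SEC libraries lay within the range of *Nestin*-GFPbright AECs and below all *Nestin*-GFPdim AEC libraries. In AECs minus SECs its log2 fold change was 1.08 (SE 0.51, 95% interval -0.08 to 2.24, adjusted p = 0.388), and that of *Nestin*-GFPdim AECs over SECs was 1.79 (95% interval 0.45 to 3.123, adjusted p = 0.234). Libraries of *Nestin*-GFPdim AECs that all lay above SECs were found in 7.61% of tested genes. Without *Nestin*-GFPbright AEC replicate 1, adjusted p was 0.0421 for AECs and 0.0468 for *Nestin*-GFPdim AECs.

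Between the AEC fractions none of the 5 genes passed the test, as did none of all 16364 genes (0% called, 803 at an unadjusted p under 0.05, 0 with voom on the recovered reads and 3 with a block on the number). *Ly6a*, which could be tested here because both fractions came from the same Sca-1 gate, had a mean of 2456 ± 1303 RPKM in *Nestin*-GFPbright AECs and 2164 ± 780 RPKM in *Nestin*-GFPdim AECs (SD, n = 3 each). The log2 difference was 0.05 with a 95% interval of -1.34 to 1.45 (adjusted p = 0.999), and that of *Ly6c1* was -0.06 with an interval of -1.46 to 1.35 (adjusted p = 0.999). These intervals hold differences of more than 1 on the log2 scale in either direction. *Ly6e* differed by -0.15 (interval -1.23 to 0.92) and *Ly6c2* by 0.93 (interval -3.45 to 5.31).

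*Gpihbp1* was the member with a difference between the fractions in which the libraries did not overlap, 58.7 to 273.2 RPKM against 276.3 to 681.4 RPKM. Its log2 difference of *Nestin*-GFPbright minus *Nestin*-GFPdim AECs was -1.41 (95% interval -2.75 to -0.08, unadjusted p = 0.0405 and adjusted p = 0.998 from limma). The exact two-sided permutation test gave p = 0.1, the smallest it can give for 3 libraries against 3. Libraries that did not overlap in this direction were found in 3.85% of tested genes. The summed sinusoidal markers did not overlap either, at 91.3 to 157.5 RPKM in *Nestin*-GFPbright and 177.2 to 1010 RPKM in *Nestin*-GFPdim AECs. The part of unlike cell content of the fractions in the *Gpihbp1* difference was not tested. Relative to *Ly6e*, *Gpihbp1* stood at 0.102 to 0.235 per RPKM of *Ly6e* in *Nestin*-GFPbright AECs, 0.344 to 0.525 in *Nestin*-GFPdim AECs and 0.120 to 0.181 in SECs. The difference between the fractions was -0.71 when *Nestin*-GFPbright AEC replicate 1, the library with the lowest sum of endothelial markers, was left out.

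Genes that handle lipoprotein lipase or the lipids it releases were set beside *Gpihbp1*. Of 20 such genes 17 were tested, of which 2 rose in AECs, 4 fell and 11 did not pass (median log2 fold change -0.20, against 0.03 over all tested genes, of which 1.94% rose and 2.99% fell). *Lipg*, which encodes endothelial lipase, fell from 90.2 RPKM in SECs to 6.01 RPKM in AECs (log2 fold change -4.51, adjusted p = 0.00327). *Angptl4*, an inhibitor of lipoprotein lipase, fell from 391 to 41.5 RPKM (-3.53, adjusted p = 0.0240), and *Apoe*, an apolipoprotein, from 1118 to 257 RPKM (-2.46, adjusted p = 0.00565). *Vldlr*, a lipoprotein receptor, stood at 0.540 RPKM in SECs and 0.108 RPKM in AECs (-0.48, adjusted p = 0.0129). All 4 were thus lower in AECs, where *Gpihbp1* did not pass the test.

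*Meox2* and *Fabp5* were the members of that list that rose in AECs. *Meox2*, a transcription factor that induces fatty acid transport genes in heart and muscle endothelium, held 2.44 to 28.3 RPKM in AECs and no read in any SEC library (adjusted p = 0.0214). *Fabp5*, a fatty acid-binding protein, stood at 16.8 RPKM in AECs and 5.69 RPKM in SECs (log2 fold change 1.299, adjusted p = 0.0358). *Lpl* itself was measured at 13.4 RPKM in AECs and 31.9 RPKM in SECs (-1.51, adjusted p = 0.320) and *Cd36*, a fatty acid receptor, at 528 and 267 RPKM (0.75, adjusted p = 0.707). The calls of *Angptl4* (left out: *Nestin*-GFPbright or *Nestin*-GFPdim AEC replicate 4, SEC replicate 3 or 4), *Vldlr* (SEC replicate 3 or 4), *Meox2* (*Nestin*-GFPbright AEC replicate 3 or 4, any SEC library) and *Fabp5* (replicates 3 and 4 of either AEC fraction, any SEC library) were lost when 1 of the libraries given was left out, with adjusted p of up to 0.134, 0.156, 0.104 and 0.179.

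Other LU domain genes of the Ly6 cluster were set beside *Ly6c1*. Of 16 such genes on chromosome 15, 5 were tested and 0 passed the test in AECs against SECs, against 4.93% of all tested genes. With 5 genes the count cannot be told apart from that share. *Ly6d*, a surface protein of early B-lineage cells and keratinocytes, stood at 602.9, 62.0 and 72.3 RPKM in *Nestin*-GFPbright AEC replicates 1, 3 and 4, 385.4, 22.1 and 8.49 RPKM in *Nestin*-GFPdim AECs, and 250.7, 1.62 and 67.5 RPKM in SECs. It was thus highest in replicate 1 of each group, as *Ly6g* was. The log2 fold changes of AECs over SECs were 1.14 for *Ly6d* (adjusted p = 0.907) and 1.39 for *Ly6g* (adjusted p = 0.897). *Lynx1*, a modulator of nicotinic receptors in the brain, *Ly6k* and *Ly6i* stayed at or below 5.27 RPKM in every library.

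LU domain genes elsewhere gave 1 call among 8 tested of 20, against 4.93% of all tested genes, too few to set the list apart. *Ly6g6e* on chromosome 17 was at 7.26 to 13.3 RPKM in SECs and at 0.00533 to 1.75 RPKM in AECs (log2 fold change -2.86, adjusted p = 0.00299), a call lost when 0.01 or nothing was added to RPKM. Its direction was the reverse of that of *Ly6c1*. *Cd59a*, which protects cells from complement, and *Plaur*, the urokinase receptor, did not pass (0.19 and 0.21, adjusted p = 0.950 and 0.958).

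Of 30 genes that build and attach the GPI anchor 28 were tested, of which 0 rose and 1 fell in AECs, near the 1.94% and 2.99% over all tested genes. Their median log2 fold change was -0.15, against 0.03 over all. The gene that fell was *Pigm*, a mannosyltransferase of the anchor, at 4.06 RPKM in AECs and 8.68 RPKM in SECs (-0.92, adjusted p = 0.0453), and its call was lost without any 1 of the 9 libraries (adjusted p of up to 0.263).

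Because *Ly6a* and *Ly6e* are known targets of interferon, 27 interferon-stimulated genes were examined, of which 5 rose in AECs, 0 fell and 22 did not pass. Over all tested genes 1.94% rose and 2.99% fell, and the median log2 fold change was 0.38 for the list and 0.03 over all. *Rsad2*, which encodes the antiviral protein viperin, stood at 67.1 RPKM in AECs and 9.91 RPKM in SECs (2.77, adjusted p = 0.00576). *Ifit1*, which binds viral RNA, stood at 24.4 and 3.89 RPKM (2.42, adjusted p = 0.00327), and *Isg15*, a ubiquitin-like modifier, at 77.9 and 26.6 RPKM (1.5001, adjusted p = 0.00950). *Ifit2* (1.10, adjusted p = 0.0434) and *Irf7* (0.95, adjusted p = 0.0211) also rose. *Bst2*, which encodes the antiviral protein tetherin, was among those that did not pass (-0.0070, adjusted p = 0.998). All 4 interferon receptor genes were tested and 0 passed (median -0.26). The call of *Isg15* was lost without SEC replicate 3 or 4 (adjusted p of up to 0.0692) and that of *Ifit2* without any 1 library other than *Nestin*-GFPbright AEC replicate 1 (up to 0.221). *Irf7* lost its call without replicate 3 or 4 of *Nestin*-GFPbright AECs or of SECs (up to 0.131).

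**Figure D4:**
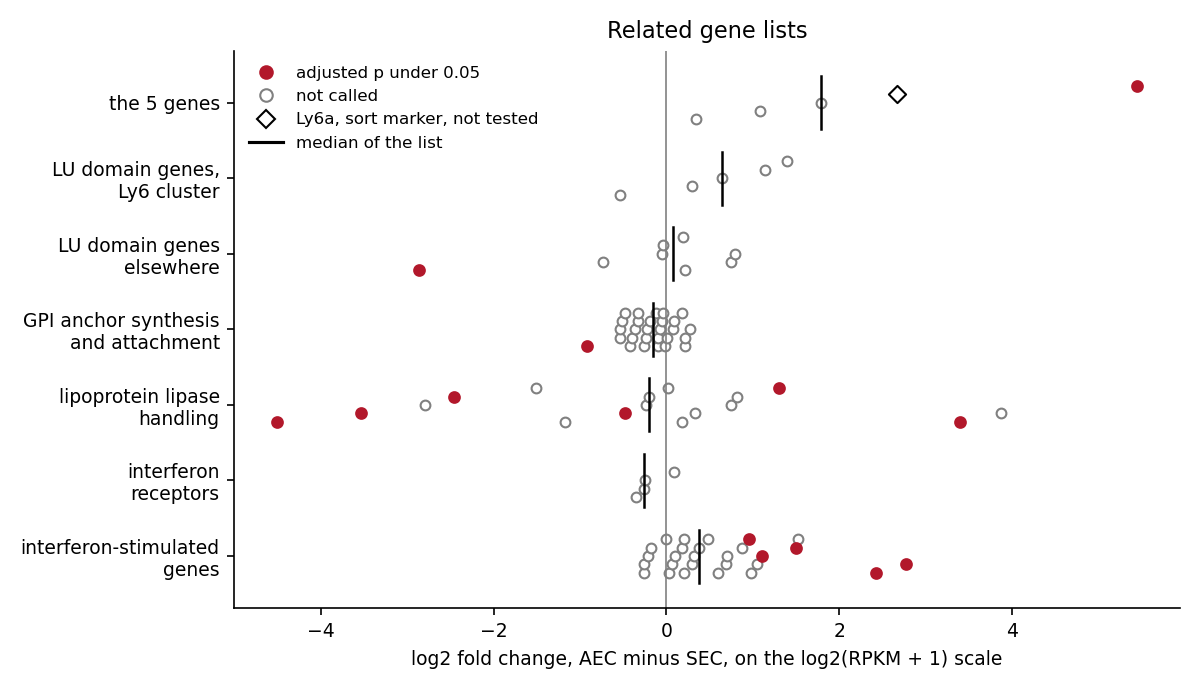
Log2 fold change of AECs minus SECs on the log2(RPKM + 1) scale for every tested gene of 7 lists, with a point per gene, filled where adjusted p was under 0.05, plus a line at the median of each list. *Ly6a* is drawn as a diamond without a test; calls to the right are *Ly6c1* (5.45), *Meox2* and *Fabp5* and 5 interferon-stimulated genes, and those to the left are led by *Lipg* (-4.51).

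The genes used for the sort and for the GFP were read in the same way. *Nes*, the source of the *Nestin* sequence, stood at 3.03 to 21.5 RPKM in AECs and 0.735 to 0.894 RPKM in SECs. Its log2 fold change of 2.56 is given as a description, since GFP brightness set *Nestin*-GFPbright AECs apart. In *Nestin*-GFPdim AECs, which were not chosen for bright GFP, *Nes* stood at 5.77, 9.60 and 13.8 RPKM in replicates 1, 3 and 4. It did not pass the test there against SECs. *Pdpn* did not pass the filter, with at most 0.866 RPKM, so the transcript of the second sort marker did not separate SECs. *Pecam1*, which encodes CD31, stood at 97.7 to 418.4 RPKM in AECs and 87.6 to 158.3 RPKM in SECs (1.12, adjusted p = 0.374). *Ptprc*, which encodes CD45, reached 44.5 RPKM in *Nestin*-GFPbright AEC replicate 1 and was at 0.0752 RPKM in SEC replicate 3.

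Genes on the chromosome around *Ly6c1* were read from the same fit. Between 500 kb before the first and 500 kb after the last of the 5 genes, 41 genes were listed and 40 tested. Apart from *Ly6a*, *Ly6c1* was the 1 gene of this window that passed the test in AECs against SECs. Over all tested genes 4.93% passed, so this count does not set the window apart. The median log2 fold change was 0.21 for the tested genes of the window and 0.03 over all. *Gsdmd* did not pass (0.56, adjusted p = 0.0874 from limma), but all its AEC libraries lay above its SEC libraries, as in 4.69% of tested genes. *Ly6i*, between *Ly6e* and *Ly6a*, had 0.30 (adjusted p = 0.770), and *Ly6g*, beyond *Ly6c2*, had 1.39.

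**Figure D5:**
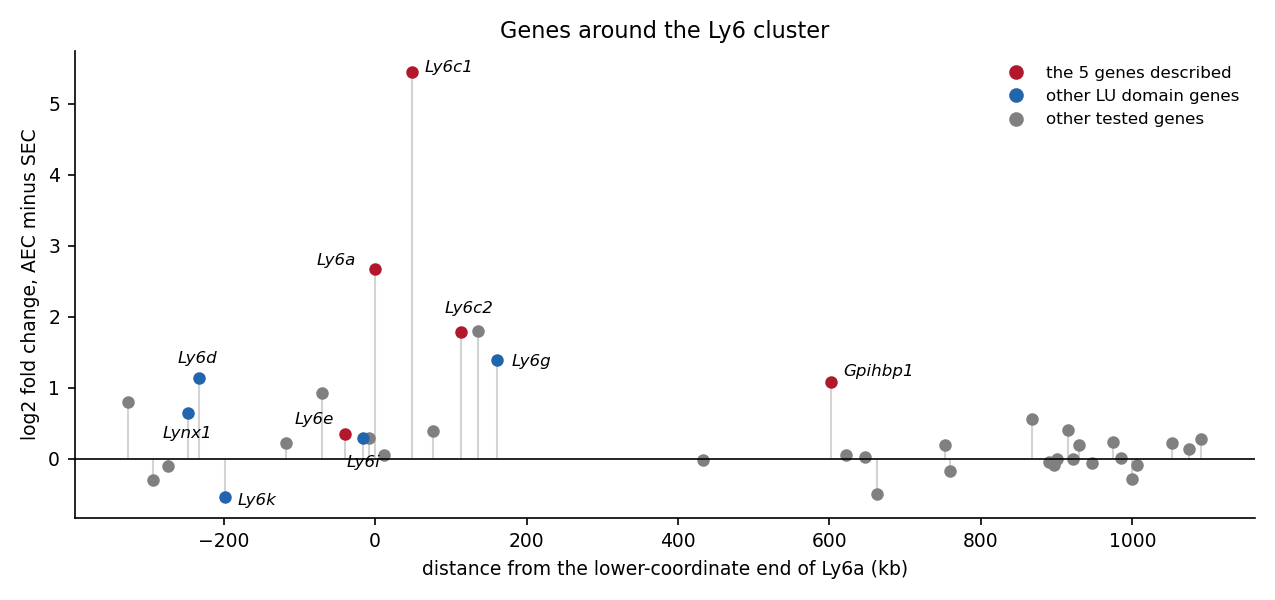
Log2 fold change of AECs minus SECs for the 40 tested genes around the Ly6 cluster, against the distance in kb from the lower-coordinate end of *Ly6a*, with the 5 genes in red and other LU domain genes in blue. *Ly6c1* (5.45) and *Ly6a* (2.67) stand above their neighbours, and *Gpihbp1* (1.08) lies apart from the other members.

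The genes most like each member over the 9 libraries were found by the root mean square difference of their centred log2(RPKM + 1) values among 4990 other tested genes with a mean of at least 10 RPKM. For *Ly6a* they were *Tm4sf1* (0.26), *Cd200* (0.26) and *Enpp3* (0.34), against a median of 1.47 over all candidates. *Ly6c1* was nearest to *Jam2*, a junctional adhesion molecule (0.34), *Ednrb*, an endothelin receptor (0.48), and *Lims2* (0.54), against a median of 2.70. Pairs of members were not picked as the nearest, so their differences are set beside the medians of the 2 genes. *Ly6a* and *Ly6c1* differed by 1.32, under both medians (1.47 and 2.70). *Ly6a* differed less from *Gpihbp1* (1.06) and from *Ly6e* (1.14), so *Ly6c1* was not the member nearest to *Ly6a* by this measure. *Ly6c1* and *Ly6c2* differed by 3.36, over both (2.70 and 2.54). *Ly6e* and *Gpihbp1* differed by 0.72, between theirs (0.60 and 1.10). *Ly6c2* and *Ly6g* differed by 0.92.

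The nearest genes of the other 3 members came from different settings. *Ly6c2* was nearest to *Serpinb1a*, an inhibitor of neutrophil proteases (0.33), *Lgals3*, a galectin of myeloid cells (0.35), and *Alox5ap*, which leukocytes need to make leukotrienes (0.36), against a median of 2.54. *Ly6e* was nearest to *Ids*, a lysosomal sulfatase (0.13), *Ywhaq* (0.14) and *Pitpnc1* (0.15), against a median of 0.60, as genes with little difference between libraries are close to one another. *Gpihbp1* was nearest to *Ces2e*, a carboxylesterase (0.27), *Cd300lg*, a mucin-like protein of capillary endothelium (0.32), and *Scarb1*, the receptor of high-density lipoprotein (0.34), against a median of 1.10. *Cd300lg* stood at 59.5 to 525 RPKM in AECs and 123.7 to 178.2 RPKM in SECs, and *Scarb1* at 29.2 to 159.5 and 39.5 to 58.8 RPKM.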

How the data were processed

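RNA of the 9 sorted libraries was made into complementary DNA with a kit for very low input, prepared with Nextera XT and read single-end. Alignment by the authors used STAR and counting used HTSeq, and the deposited values are log2 RPKM from edgeR 3.12.0. The submitters' processing notes name mm9, whereas 99.98% of the 17087 listed genes found in GENCODE M21 overlap it on GRCm38, and positions are given on GRCm38. The strand setting of the counting is not given in the sources used here. Reads behind the values were recovered from the value of a gene with no read: 155085 of 155088 were whole within 0.0001 reads. No molecular identifiers were used, so numbers of reads are not numbers of molecules.

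Groups were compared by limma 3.58.1 (R 4.3.3). Values entered as log2(RPKM + 1) for 16364 genes that reached 0.1 RPKM in 3 or more libraries, with 3 groups in a single fit, a trend in the variance, no block, and Benjamini-Hochberg adjustment over all of them. Adding 1 understates the changes of low genes. Exact permutation tests (scipy 1.17.1) double the smaller tail. Alternatives were other pseudocounts and filters, quantile and median scaling, no trend, library weights, a fit on the compared groups alone, a block on the replicate number, voom on the recovered reads, libraries numbered 3 and 4 alone and the leaving out of each library.

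Equal replicate numbers were checked by the correlation of deviations from the group means. All 3 pairs were above 0.1 between *Nestin*-GFPbright and *Nestin*-GFPdim AECs (0.78, 0.42 and 0.15) and between *Nestin*-GFPdim AECs and SECs (0.78, 0.65 and 0.12). Libraries of unlike number gave -0.71 to 0.50 and -0.70 to 0.29 there. Between *Nestin*-GFPbright AECs and SECs equal numbers gave 0.71, 0.59 and -0.21. Replicate 1 was closest to its own number throughout. *Nestin*-GFPbright AEC replicate 3 was closer to *Nestin*-GFPdim AEC replicate 4 (0.50) than to replicate 3. *Nestin*-GFPdim AEC replicate 4 was closer to SEC replicate 3 (0.29) than to replicate 4. The correlations thus do not settle whether equal numbers mark pairs, and the main fit used no block.

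Sequences were taken from RefSeq windows and GENCODE M21 transcripts and aligned with biotite 1.4.0. Coding sequences are those held by most CCDS transcripts of a gene. The text names the 5 genes, tested LU domain genes of the cluster, the sort genes, up to 4 called genes per direction of each other list, and the 3 nearest patterns per member. *Irf7*, *Bst2*, *Cd59a*, *Plaur*, *Cd34*, *Kit*, *Lpl* and *Cd36* were named after their values were seen. The members and lists were chosen with earlier results of these data known.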

Additional observations from a re-analysis of the deposited data

How the results depend on the processing

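The 22 alternatives left *Ly6c1* called against SECs in AECs as a whole and in both fractions (log2 fold changes 5.04 to 6.06), and *Ly6a* kept its direction there (2.35 to 3.26). *Gpihbp1* in AECs against SECs passed with a weight per library (log2 fold change 1.48, adjusted p = 0.0267), which raised the number of genes called among the 4 tested from 1 to 2. The same count lay between 1 and 2 when single libraries were left out, in AECs and in *Nestin*-GFPdim AECs, and *Gpihbp1* between 0.88 and 1.43 and between 1.43 and 2.08. *Ly6c2* turned to -0.23 with weights in *Nestin*-GFPdim AECs, and ranged from -0.64 to 3.25 in AECs, -0.17 to 3.71 in *Nestin*-GFPbright and -1.10 to 2.78 in *Nestin*-GFPdim AECs when single libraries were left out, the lowest each time without SEC replicate 3. *Gpihbp1* in *Nestin*-GFPbright AECs ranged from -0.027 to 1.07. *Ly6d* and *Ly6g* turned to -0.11 and -0.19 with weights, and without single libraries ranged from -0.74 to 2.55 and from -1.005 to 2.90, the lowest without SEC replicate 3.

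Between the fractions, values near 0 changed sign. *Ly6a* was -0.19 with quantile normalization and -0.29 to 0.61 without single libraries. *Ly6c1* was 0.24 with weights, 0.0067 with voom, 0.25 with libraries 3 and 4 alone, and -0.43 to 0.55 without single libraries, and *Ly6e* -0.38 to 0.19. The cause was not tested. In AECs, 2 to 11 interferon-stimulated genes and 0 to 4 genes of lipoprotein lipase handling were called higher, and 2 to 6 of the latter lower, and the highest counts (11, 4 and 6) came with library weights. With the compared groups alone *Apoe*, *Fabp5*, *Ifit2* and *Irf7* lost their calls (adjusted p = 0.0568, 0.0875, 0.0705 and 0.0620). Calls were also lost by *Fabp5*, *Ifit2* and *Pigm* with quantile normalization, by these and *Irf7* with a shift to one median, by *Vldlr* without a trend or with nothing added, and by *Vldlr*, *Ifit2* and *Pigm* with libraries 3 and 4 alone (adjusted p of 0.0511 to 0.207).

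The replicate number as a block changed no call of the 5 genes (*Ly6c1* 5.45, adjusted p = 0.000773; *Gpihbp1* adjusted p = 0.114 in AECs and 0.0532 in *Nestin*-GFPdim AECs), while 1333 of all genes were called in place of 807, 1391 in place of 750, 644 in place of 319 and 3 in place of 0. *Ly6c2* in SEC replicate 3 rests on 35 reads, the lowest read count among the values of the 5 genes.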
